A study of Mus musculus with 2 samples.

Results

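Cluster 8 was a group of 197 colon epithelial cells, 6.39% of the 3082 cells that the authors had grouped into 12 clusters, numbered 0 to 11. It was taken as the column headed 8 of the authors' deposited table of cluster averages. It was described over the 17044 genes of that table and set against the other 11 columns, in particular cluster 9 (168 cells) and cluster 4 (324 cells). The cells were epithelium of the colon, from C57BL/6 mice of wild-type genotype, taken 2 weeks after irradiation, and the series title places them in work on radiation proctitis, an injury of the rectum, treated by transplanting colonoids, which are colon epithelium grown in culture. The labels list 2 libraries in 1 group. They name neither the animals behind the libraries nor the cells that descend from a graft, and give no sex or age for the mice. The table holds no column per library, so no value below has a replicate error and no comparison between clusters was tested. Each level is the mean over cells of a gene's unique molecular identifiers (UMIs, the tags that mark single captured RNA molecules) per 10000 UMIs of the cell, and its bracketed interval is a 95% Poisson interval that covers counting error only. The clusters were drawn from the expression of these same cells, so the levels describe the cluster and are not separate evidence for it.

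Absorptive colonocytes line the surface of the large bowel, where they take up sodium, chloride and water and exchange chloride for bicarbonate. In the distal colon they also take up sodium through the epithelial sodium channel and return potassium to the body with a colonic hydrogen-potassium pump. They carry a brush border of microvilli, and they burn short chain fatty acids made by gut bacteria. Posterior Hox genes, which keep a record of position along the gut, are most active in the distal colon and rectum.

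The cells of cluster 8 held fewer UMIs than those of clusters 9 and 4, and the cause was not tested. A cell of cluster 8 held a median of 6487 UMIs (185 of the 197 totals could be worked out from the table), against 12821 for cluster 9 and 9645 for cluster 4. Cytosolic ribosomal protein genes took 3.97% of the UMIs in cluster 8, while the shares were 16.2% for cluster 9 and 5.82% for cluster 4. Mitochondrial transcripts took 4.58% in cluster 8, against 4.50% for cluster 9 and 6.55% for cluster 4. The nuclear RNA Malat1 took 1.96% in cluster 8, against 1.73% for cluster 9 and 4.76% for cluster 4. These shares move with the comparisons below, and their part in them was not tested.

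The cluster is named a distal absorptive colonocyte from 7 markers, chosen with these levels known, so they describe it and do not check the name. Of the 7, 6 had their highest level in cluster 8. Car4, a membrane-bound carbonic anhydrase, stood at 38.1 per 10000 in cluster 8 (36.8 to 39.4), against 6.82 for cluster 9, 1.36 for cluster 4 and 1.91 for cluster 3, and it was listed at 0 in cluster 10. Aqp8, a water channel, stood at 23.3 in cluster 8 (22.3 to 24.3), against 4.45 for cluster 9 and 2.49 for cluster 4. Slc26a3, the chloride-bicarbonate exchanger whose loss causes chloride diarrhoea, stood at 20.7 in cluster 8 (19.8 to 21.7), against 4.33 for cluster 9 and 1.78 for cluster 4. In all of these cluster 9 was the next highest, with cluster 8 higher by 5.59-fold for Car4, 5.24-fold for Aqp8 and 4.78-fold for Slc26a3. Saa1, an acute phase protein that binds retinol, was the most abundant of the markers, at 168 in cluster 8 (166 to 171), against 14.2 for cluster 9 and 28.6 for cluster 4. Fxyd4, a small subunit that tunes the sodium pump in kidney and distal colon, stood at 21.9 in cluster 8 (20.9 to 22.9), against 0.0162 for cluster 9, 2.02 for cluster 4 and 6.11 for cluster 3. Ly6g, a surface protein best known from neutrophils, stood at 8.19 in cluster 8 (7.60 to 8.81), against 0.178 for cluster 9, 5.66 for cluster 4 and 0.603 for the neutrophil-rich cluster 5. Hoxb13, the most posterior gene of its Hox cluster, was the exception to the highest rank, at 7.72 in cluster 8 (7.14 to 8.32), against 1.31 for cluster 9, 4.15 for cluster 4, 7.44 for cluster 3 and 9.26 for cluster 11. Car4, Aqp8 and Slc26a3 therefore had cluster 9 next, Saa1 and Ly6g had cluster 4 next, and Fxyd4 had cluster 3 next. Genes of small intestine and proximal absorptive cells were not absent. The 18 measured summed to 14.3 in cluster 8, below only cluster 9 at 42.1, against 5.03 for cluster 4 and 5.42 for cluster 3. Of those at 1 or more, 3 of 3 were 2-fold higher than in cluster 4, beside 7.16% of all genes. Against cluster 9, 1 of 4 was higher and 1 lower, beside 13.9% and 18.5% of all genes.

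**Figure D1:**
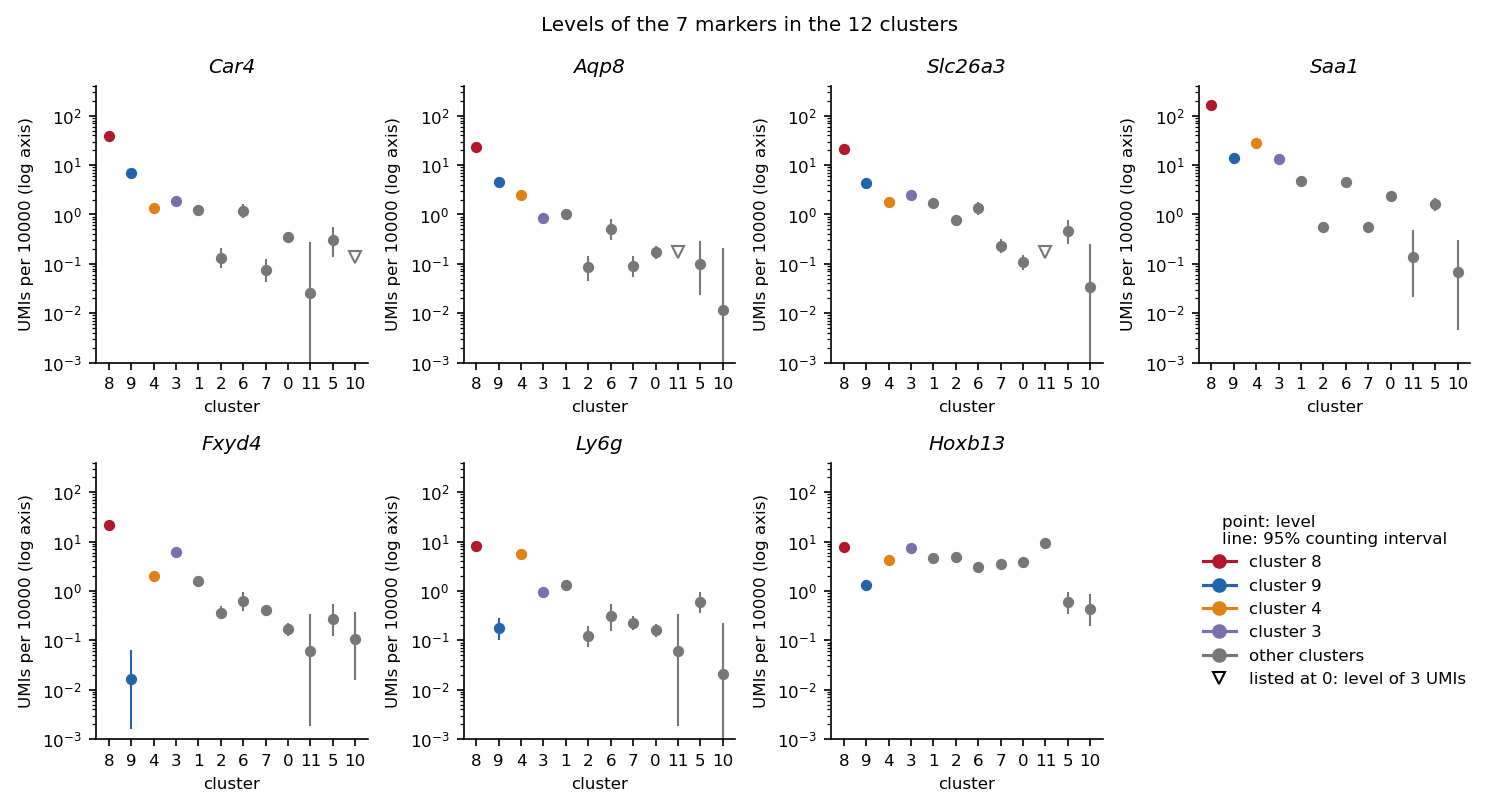
Levels of the 7 marker genes in the 12 clusters, in UMIs per 10000 on a log axis; points are levels, lines 95% counting intervals, and open triangles mark genes listed at 0. Cluster 8, drawn leftmost, has the highest level of 6 of the 7 genes, and cluster 11 has the highest level of Hoxb13.

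In the GRCm38 annotation (GENCODE vM21), Car4 lies on chromosome 11 at 84957786 to 84966044, and Hoxb13 on the same chromosome at 96194316 to 96197447, both on the plus strand. Aqp8 lies on chromosome 7 at 123462291 to 123468004 (plus strand) and Saa1 at 46740497 to 46742980 of that chromosome (minus strand). Slc26a3 lies on chromosome 12 at 31390871 to 31473917 (plus strand), Fxyd4 on chromosome 6 at 117933559 to 117937692 (minus strand), and Ly6g on chromosome 15 at 75155240 to 75159126 (plus strand).

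A gene was counted as leading when its level in cluster 8 was at least 1 per 10000 and at least 2-fold that of the highest other cluster, with 0.1 per 10000 added to both. Of the 1383 genes at that level, 39 led, which is 2.82% of them. The next highest cluster was 4 for 15 of the 39, 3 for 13, 9 for 8, 1 for 2 and 2 for 1. By family the 39 held 6 cytochrome P450 genes, 4 of them of the Cyp2d group, 5 Slc carriers, the prostaglandin carrier Slco2a1 and both metallothioneins. How many genes of these families were among the 1383 was not counted, so the counts do not show that a family led more often than others. Epas1, a hypoxia-inducible factor, lay just inside the bound at 1.04 in cluster 8, against 0.466 in the next cluster, and so did Abcb1a, a drug efflux pump, at 5.65 in cluster 8, against 2.63 in the next. Just outside it lay Fbxo32 at 2.05 in cluster 8, against 0.975 in the next, the epithelial sodium channel subunit Scnn1a at 1.69 in cluster 8, against 0.816 in the next, and the vitamin D receptor Vdr at 3.08 in cluster 8, against 1.54 in the next.

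Over 3276 genes the levels of cluster 8 ranked most like those of cluster 4 (Spearman rho 0.91), followed by cluster 3 (0.87), cluster 1 (0.85) and cluster 9 (0.84), and least like cluster 10 (0.29). These coefficients are across genes that share one table, and they are descriptions only. Genes could also lead in cluster 8 together with a second cluster: 23 led jointly with cluster 4, 7 with cluster 3, 6 with cluster 9 and 0 with any other cluster. The 23 with cluster 4 included Saa1, Plac8, Ly6g, the colonic hydrogen-potassium pump Atp12a and the brush border adhesion protein Ceacam20. The 7 with cluster 3 included Fxyd4, the phosphate carrier Slc20a1, the epidermal cross-linking enzyme Tgm3, mitochondrial creatine kinase Ckmt1 and Sycn. The 6 with cluster 9 were Car1, Car4, the fatty acid oxidase Cyp2c55, the dipeptidase Dpep1, Ugdh, which makes the donor for glucuronidation, and Guca2a, whose product guanylin stimulates chloride secretion.

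Genes of anion exchange and potassium uptake were among the leading ones. Slc26a2, a sulfate carrier of the same family as Slc26a3, stood at 15.8 in cluster 8 (14.999 to 16.7), against 3.56 for cluster 9, 3.44 for cluster 4 and 5.25 for cluster 3. Atp12a, the catalytic subunit of the colonic hydrogen-potassium pump, stood at 5.46 in cluster 8 (4.98 to 5.97), against 0.0123 for cluster 9, 2.17 for cluster 4 and 0.684 for cluster 3. The ratio of Atp12a to cluster 4 was 2.51 (2.16 to 2.93), and that to cluster 9 rested on fewer than 3 UMIs in cluster 9, at 444 (98.5 to 7254). Ano1, a calcium-activated chloride channel, stood at 1.71 in cluster 8, against 0.226 for cluster 9 and 1.33 for cluster 4. Of the 22 measured genes of chloride, bicarbonate and potassium transport, 9 had their highest level in cluster 8, where 8.47% of all genes did. Against cluster 9, 4 of 8 at a level of 1 or more were 2-fold higher in cluster 8 and 1 lower, where over all 1745 genes 13.9% were higher and 18.5% lower. Against cluster 4, 3 of 9 were higher and 3 lower, where over all 1649 genes 7.16% were higher and 9.7% lower. Without mitochondrial, ribosomal protein and Malat1 transcripts 4 of 10 were higher and 2 lower than in cluster 9. When all genes were scaled by their median ratio, 4 of 7 were higher and 1 lower than in cluster 9. Over all genes 197 were higher and 500 lower without those transcripts, and 421 and 211 under the median ratio. The main counts were 242 and 323.

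Several genes that colonocytes use to secrete chloride stood near the bottom of the same list. The chloride channel Ano1, given above, went the other way and was higher in cluster 8 than in cluster 9. Slc12a2, the basolateral carrier that loads the cell with chloride, stood at 0.00665 in cluster 8, from 1 cell, against 0.805 for cluster 9, 0.266 for cluster 4 and 2.18 for cluster 6, where it was highest. Cftr, the cystic fibrosis chloride channel, stood at 0.0679 in cluster 8 (0.0248 to 0.149), against 0.701 for cluster 9 and 0.0214 for cluster 4. Kcne3, a potassium channel subunit that supports secretion, stood at 0.0505 in cluster 8, against 1.95 for cluster 9, 0.0320 for cluster 4 and 1.52 for cluster 3. Its partner Kcnq1 stood at 0.0364 in cluster 8, against 0.400 for cluster 9 and 0.0419 for cluster 4, and the calcium-activated potassium channel Kcnn4 at 0.0241 in cluster 8, against 0.730 for cluster 9 and 0.164 for cluster 4. Cluster 9 was thus higher than cluster 8 for Slc12a2, Cftr, Kcne3, Kcnq1 and Kcnn4, though not for Ano1. The ratio was 10.3-fold for Cftr (4.52 to 29.2), 38.6-fold for Kcne3 (15.5 to 132) and 10.998-fold for Kcnq1 (3.63 to 52.1). For Cftr, Kcne3 and Kcnq1 the intervals of clusters 8 and 4 overlapped. Best2, a bicarbonate channel that stood at 3.02 in cluster 0, was listed at 0 in cluster 8.

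Among sodium transport genes Scnn1a, the alpha subunit of the epithelial sodium channel, stood at 1.69 in cluster 8 (1.43 to 1.98), against 0.609 for cluster 9 and 0.816 for cluster 4, ratios of 2.77 to cluster 9 (2.07 to 3.75) and 2.07 to cluster 4 (1.59 to 2.69). The beta subunit Scnn1b stood at 0.111 in cluster 8 (0.0527 to 0.206), against 0.00772 for cluster 9 and 0.0728 for cluster 4. The gamma subunit Scnn1g stood at 0.0143 in cluster 8 and 0.0234 in cluster 4 and was listed at 0 in cluster 9, so of the channel's subunits only the alpha one had a level above 1. Slc9a2, an apical sodium-hydrogen exchanger, stood at 2.60 in cluster 8 (2.27 to 2.96), against 1.46 for cluster 9 and 1.22 for cluster 4. The related exchanger Slc9a3 was listed at 0 in cluster 8 and stood at 0.0449 in cluster 9. Atp1b1, the beta subunit of the sodium pump, stood at 12.5 in cluster 8, against 8.46 for cluster 9 and 8.69 for cluster 4. Among the pump's small FXYD subunits Fxyd4 stood high in cluster 8 (above) while Fxyd3 stood at 0.0894, against 10.96 for cluster 11.

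Of 17 measured sodium transport genes, 7 were highest in cluster 8, beside the 8.47% of all genes. Between clusters 8 and 9, 3 of the 7 at a level of 1 or more (Scnn1a, Fxyd4 and Slc9a3r1, a scaffold of sodium-hydrogen exchangers) were 2-fold higher in cluster 8 and 0 lower, beside the 13.9% and 18.5% of all genes. Between clusters 8 and 4 the counts were also 3, with Slc9a2 and Fxyd4 among them, and 0 of 7, beside the 7.16% and 9.7% of all genes. The counts against cluster 9 depended on the scaling. Without mitochondrial, ribosomal protein and Malat1 transcripts 2 of 8 were higher and 2 lower than in cluster 9. When all genes were scaled by their median ratio, 4 of 7 were higher and 0 lower. The counts over all genes moved too, from 242 higher and 323 lower to 197 and 500, and to 421 and 211. Genes through which aldosterone acts differed among themselves. Nr3c2, the mineralocorticoid receptor, stood at 0.716 in cluster 8, against 0.352 for cluster 9 and 0.628 for cluster 4, while Hsd11b2, which shields that receptor from glucocorticoids, stood at 1.29 in cluster 8, against 3.14 for cluster 9 and 1.64 for cluster 4. Sgk1, a kinase downstream of aldosterone, stood at 1.17 in cluster 8, against 1.30 for cluster 9 and 0.592 for cluster 4.

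**Figure D2:**
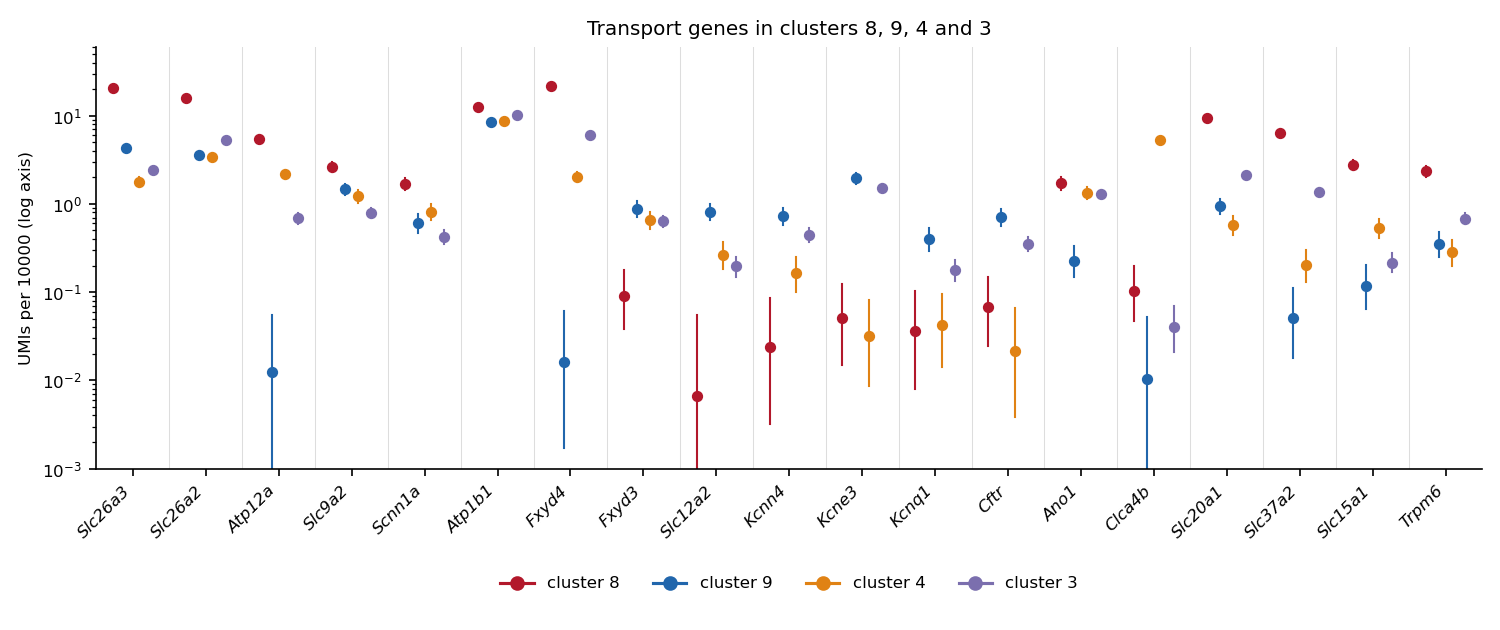
Levels of 19 transport genes in clusters 8, 9, 4 and 3, in UMIs per 10000 on a log axis; points are levels and lines 95% counting intervals. Slc26a3, Slc26a2, Atp12a, Fxyd4 and the carriers at the right are highest in cluster 8, and the secretory genes from Slc12a2 to Cftr lie below 0.1 there.

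Carbonic anhydrases, which make the bicarbonate and protons that the exchangers move, summed to 123 in cluster 8, against 87.1 for cluster 9 and 15.5 for cluster 4. Car1, a cytosolic form, stood at 74.4 in cluster 8 (72.6 to 76.2), against 60.4 for cluster 9 and 7.73 for cluster 4, so the 2 Car genes of highest level set cluster 8 apart from cluster 4 by 9.62-fold for Car1 and 28.1-fold for Car4. Car2, another cytosolic form, stood at 9.99 in cluster 8, against 18.4 for cluster 9, 4.01 for cluster 4 and 19.4 for cluster 3. The hypoxia-linked Car9 stood at 0.667 in cluster 8, against 0.840 for cluster 9 and 1.91 for cluster 4.

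The 2 main water channels of these clusters ran opposite ways. Aqp8 was highest in cluster 8, as given above, whereas Aqp4 stood at 0.0600 in cluster 8 (0.0201 to 0.137), against 5.45 for cluster 9, 0.141 for cluster 4 and 2.14 for cluster 3. Cluster 9 was higher than cluster 8 for Aqp4 by 90.9-fold (39.4 to 272). Aqp1 was listed at 0 in cluster 8 and stood at 0.336 in cluster 9, at least 9.79-fold lower in cluster 8 by the level of 3 UMIs. Guca2a stood at 78.0 in cluster 8 (76.2 to 79.9), against 150 for cluster 9 and 23.1 for cluster 4. Its receptor gene Gucy2c stood at 0.925 in cluster 8, against 0.909 for cluster 9 and 0.522 for cluster 4.

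Carriers of phosphate, peptides, magnesium and other solutes were among the leading genes. Slc20a1, a sodium-phosphate carrier, stood at 9.40 in cluster 8 (8.77 to 10.1), against 0.945 for cluster 9, 0.573 for cluster 4 and 2.11 for cluster 3. Slc37a2, a sugar-phosphate exchanger, stood at 6.43 in cluster 8 (5.91 to 6.99), against 0.0506 for cluster 9, 0.202 for cluster 4 and 1.38 for cluster 3. Slc15a1, the apical peptide carrier, stood at 2.78 in cluster 8 (2.44 to 3.15), against 0.118 for cluster 9 and 0.527 for cluster 4, ratios of 23.4 to cluster 9 (13.6 to 44.2) and 5.27 to cluster 4 (3.996 to 7.04). For Slc20a1 and Slc37a2 the next highest cluster was 3, and for Slc15a1 it was 4. Trpm6, the apical magnesium channel, stood at 2.34 in cluster 8, against 0.350 for cluster 9, 0.282 for cluster 4 and 0.680 for cluster 3. Slco2a1, which takes up prostaglandins, stood at 1.58 in cluster 8, against 0.294 for cluster 9 and 0.676 for cluster 4, and the iron exporter Slc40a1 at 2.38 in cluster 8, against 0.466 for cluster 9 and 1.65 for cluster 4. Slc6a14, an amino acid carrier, went the other way between clusters 8 and 9, at 1.81 in cluster 8, against 2.90 for cluster 9, 0.902 for cluster 4 and 4.84 for cluster 3, and the bile acid exporter subunit Slc51a was listed at 0 in cluster 8 and stood at 0.354 in cluster 9. Of 25 measured carriers 7 were highest in cluster 8, beside 8.47% of all genes. Of the 11 at a level of 1 or more, 5 were 2-fold higher and 0 lower in cluster 8 than in cluster 9, beside 13.9% and 18.5% of all genes. Against cluster 4, 4 were higher and 0 lower, beside 7.16% and 9.7% of all genes.

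Both metallothioneins, which bind zinc and copper, led in cluster 8. Mt1 stood at 35.2 in cluster 8 (33.9 to 36.4), against 12.5 for cluster 9, 10.04 for cluster 4 and 11.9 for cluster 3. Mt2 stood at 11.8 in cluster 8 (11.1 to 12.6), against 4.06 for cluster 9, 2.22 for cluster 4 and 3.28 for cluster 3. The ratio to cluster 9 was 2.81 for Mt1 (2.63 to 2.99) and 2.91 for Mt2 (2.61 to 3.26), and these intervals overlap. The genes are alike in sequence and the counting can split reads between them. They are neighbours on chromosome 8 with starts 6471 bases apart, and their promoters are shown because both genes were higher in cluster 8. The windows are RefSeq's for GRCm38.p6, 250 bases before the start and 50 after it, at chr8:94178839-94179138 for Mt1 and chr8:94172368-94172667 for Mt2, both on the plus strand. Capitals mark matches, on either strand, to TGCNCNC, where N is any base, a loose form of the core of the metal response element. The zinc-sensing factor MTF1 is known to bind that element.
Mt1: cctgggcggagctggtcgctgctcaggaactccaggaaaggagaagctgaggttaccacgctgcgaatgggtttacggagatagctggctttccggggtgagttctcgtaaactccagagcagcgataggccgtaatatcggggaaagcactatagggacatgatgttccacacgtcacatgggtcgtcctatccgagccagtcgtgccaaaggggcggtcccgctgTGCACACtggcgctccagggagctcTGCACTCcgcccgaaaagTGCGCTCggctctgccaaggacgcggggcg
Mt2: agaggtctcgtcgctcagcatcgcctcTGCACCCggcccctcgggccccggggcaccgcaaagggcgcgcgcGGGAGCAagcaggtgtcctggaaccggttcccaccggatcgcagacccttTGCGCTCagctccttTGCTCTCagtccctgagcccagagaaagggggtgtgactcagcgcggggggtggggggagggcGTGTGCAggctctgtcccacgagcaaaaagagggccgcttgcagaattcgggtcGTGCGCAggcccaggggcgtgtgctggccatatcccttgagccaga
Mt1 held 3 matches and Mt2 held 6. At least 1 match was found in 51.0% of 32851 promoter windows, at least 3 in 7.1% and at least 6 in 0.225%. These counts hold for the loose form only, and a stricter form of the core could mark fewer stretches. A match describes the letters and not bound protein.

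Among detoxifying enzymes the Cyp2d group, whose members oxidise drugs and plant compounds in mouse liver, gave the largest excess over all other clusters. Cyp2d12 stood at 3.102 in cluster 8, against 0.0938 for cluster 9, 0.0515 for cluster 4 and 0.312 for cluster 1, the next highest, a ratio of 9.95. Cyp2d9 stood at 1.55 in cluster 8, against 0.325 for cluster 9 and 0.115 for cluster 4, Cyp2d10 at 3.23 in cluster 8, against 0.202 for cluster 9 and 0.826 for cluster 4, and Cyp2d34 at 9.39 in cluster 8, against 1.74 for cluster 9 and 4.17 for cluster 4. These 4 genes are close copies, so the split of reads among them is uncertain, while the excess is in the same direction in each. Cyp3a13 stood at 2.10 in cluster 8, against 0.595 for cluster 9 and 0.499 for cluster 4, and Sult2b1, which sulfonates cholesterol, at 1.80 in cluster 8, against 0.578 for cluster 9 and 0.510 for cluster 4.

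Other detoxifying enzymes were much lower in cluster 8 than in cluster 9. Sult1a1, a phenol sulfotransferase, stood at 0.137 in cluster 8 (0.0706 to 0.239), against 8.82 for cluster 9, 0.0458 for cluster 4 and 2.60 for cluster 3. Gstm1, a glutathione transferase, stood at 0.148 in cluster 8, against 3.70 for cluster 9 and 0.170 for cluster 4, and the glutathione peroxidase Gpx2 at 0.490 in cluster 8, against 6.16 for cluster 9 and 2.22 for cluster 4. Cyp2c55, which oxidises arachidonic acid, stood at 8.81 in cluster 8, against 12.5 for cluster 9 and 1.40 for cluster 4. Mgst1, a membrane glutathione transferase, stood at 4.05 in cluster 8, against 3.30 for cluster 9 and 0.334 for cluster 4, and the thiol-linked Selenbp1 at 19.9 in cluster 8, against 14.96 for cluster 9 and 1.57 for cluster 4. A list of 34 measured detoxifying enzymes, which holds Cyp2d34 and both metallothioneins but not the other Cyp2d genes, Sult2b1, Mgst1 or Selenbp1, had 11 members highest in cluster 8. Over all genes 8.47% were highest there. Against cluster 9, 5 of 21 were higher and 8 lower, beside 13.9% and 18.5% of all genes. The median log2 ratio was -0.03, where that of all genes was -0.05. It was -0.32 without mitochondrial, ribosomal protein and Malat1 transcripts, and 0.43 when all genes were scaled by their median ratio. The medians of all genes were then -0.25 and 0.28. Against cluster 4, 10 of 17 were higher and 3 lower, beside 7.16% and 9.7% of all genes. The median log2 ratio was 1.15, where that of all genes was -0.04.

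Prdx6, a peroxidase that reduces phospholipid peroxides, was among the 10 genes of highest level in cluster 8 at 176 (173 to 178), against 18.8 for cluster 9, 80.2 for cluster 4 and 57.4 for cluster 3. Crip1, a small LIM-domain protein of the intestine, stood at 221 in cluster 8 (218 to 224), against 67.2 for cluster 9 and 89.0 for cluster 4. Lypd8, a secreted surface protein that keeps flagellated bacteria off the colon epithelium, had the highest level of all genes in cluster 8, at 369 (365 to 373), against 78.2 for cluster 9 and 485 for cluster 4. Prdx6 and Crip1 led in cluster 8, whereas Lypd8 was higher in cluster 4. The others among the 10 were Malat1, Saa1, S100a6, Phgr1, Lgals4 and the mitochondrial transcripts mt-Rnr2 and mt-Cytb.

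Of the acute phase and antimicrobial genes Saa1 had the highest level in cluster 8. Its neighbour Saa2 stood at 0.151 in cluster 8 (0.0810 to 0.258), against 0.0155 for cluster 9 and 0.0448 for cluster 4, so reads of this near-identical pair fell on Saa1 by a wide margin in each of the 3 clusters. Lcn2, which traps bacterial iron carriers, the lectins Reg3b and Reg3g, and lysozyme Lyz1 were listed at 0 in cluster 8. Reg3b stood at 0.395 and Reg3g at 0.234 in cluster 9. Duox2 and Duoxa2, which together make hydrogen peroxide at the cell surface, stood at 0.536 and 0.620 in cluster 8, at 0.122 and 0.0797 in cluster 9, and at 4.96 and 8.89 in cluster 4. Pigr, the carrier of secreted antibody, stood at 13.05 in cluster 8, against 19.3 for cluster 9 and 28.8 for cluster 4. Il18, an epithelial cytokine, stood at 7.75 in cluster 8, against 2.55 for cluster 9 and 4.79 for cluster 4. Against cluster 4, 3 of 14 genes of this list were higher in cluster 8 and 6 lower, beside 7.16% and 9.7% of all genes. Against cluster 9, 3 of 10 were higher and 0 lower, beside 13.9% and 18.5% of all genes.

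Saa1 and Saa2 lie head to head on chromosome 7, and their promoters are shown because the levels of the genes differ so much. The RefSeq windows are at chr7:46742931-46743230 on the minus strand for Saa1 and at chr7:46751583-46751882 on the plus strand for Saa2. Capitals mark matches, on either strand, to TTNNGCAA, a core form of the site of C/EBP factors, which are known to drive acute phase genes in liver.
Saa1: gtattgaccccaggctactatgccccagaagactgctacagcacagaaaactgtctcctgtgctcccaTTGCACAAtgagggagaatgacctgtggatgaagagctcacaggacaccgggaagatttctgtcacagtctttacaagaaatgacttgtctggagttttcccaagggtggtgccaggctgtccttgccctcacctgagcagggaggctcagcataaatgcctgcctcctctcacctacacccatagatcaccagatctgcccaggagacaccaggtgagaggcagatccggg
Saa2: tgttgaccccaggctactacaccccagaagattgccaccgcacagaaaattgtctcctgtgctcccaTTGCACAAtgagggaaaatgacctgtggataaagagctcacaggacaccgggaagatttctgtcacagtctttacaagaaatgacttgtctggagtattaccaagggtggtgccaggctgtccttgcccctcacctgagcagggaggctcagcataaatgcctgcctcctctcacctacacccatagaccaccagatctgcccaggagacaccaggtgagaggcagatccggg
Each promoter held 1 match, at base 69 of the Saa1 window and base 68 of the Saa2 window, counted from the first base printed. Of 32851 promoter windows 10.8% held a match.

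Among Ly6 surface proteins only Ly6g was highest in cluster 8. Ly6a, a marker of repairing colon epithelium in mouse, stood at 9.56 in cluster 8, against 2.36 for cluster 9 and 27.3 for cluster 4. Ly6e stood at 0.655 in cluster 8, against 1.39 for cluster 9, 11.8 for cluster 4 and 12.6 for cluster 0, and its level in cluster 8 was the lowest of the 12. Ly6d, known from squamous epithelium, stood at 0.0211 in cluster 8, against 0.00334 for cluster 9 and 2.40 for cluster 4. Of 5 members at a level of 1 or more, 0 were 2-fold higher and 3 lower in cluster 8 than in cluster 4, beside 7.16% and 9.7% of all genes. Of 4 such members 3 were higher and 0 lower than in cluster 9, beside 13.9% and 18.5% of all genes. Genes of this family resemble one another, and reads shared between copies can shift these levels.

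Brush border genes stood above the other clusters as a whole and within 2-fold of cluster 4. Against the mean of the other clusters, 14 of 15 were 2-fold higher. Over all 1840 genes 345 were higher (18.8%) and 427 lower (23.2%), or 294 and 591 without mitochondrial, ribosomal protein and Malat1 transcripts, and 434 and 412 when genes were scaled by their median ratio. Against cluster 9, 4 of 15 were higher and 0 lower, beside 13.9% and 18.5% of all genes, with a median log2 ratio of 0.78. However, 0 were higher without the abundant transcripts named above and 8 of 16 when genes were scaled by their median ratio. The count over all genes that were higher than in cluster 9 moved too, from 242 to 197 and to 421. Against cluster 4, 0 of 16 were higher or lower, beside 7.16% and 9.7% of all genes, with a median of -0.09. Vil1, which bundles actin in microvilli, stood at 3.96 in cluster 8, against 2.47 for cluster 9 and 3.85 for cluster 4. Cdhr5, which links microvilli tip to tip, stood at 13.6 in cluster 8, against 7.80 for cluster 9 and 15.1 for cluster 4, and the membrane linker Ezr at 6.96 in cluster 8, against 3.76 for cluster 9 and 6.00 for cluster 4. The membrane mucin Muc3 did differ from both, at 45.02 in cluster 8, against 14.4 for cluster 9 and 17.5 for cluster 4. The related entry Muc3a went the other way against cluster 9, with a log2 ratio of -1.56, where that of Muc3 was 1.64. How reads split between these entries was not tested. Muc13 stood at 22.3 in cluster 8, against 6.26 for cluster 9 and 28.3 for cluster 4.

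Claudins, the proteins of the tight junction, differed from one another. Cldn3 and Cldn7 stood at 19.0 and 24.2 in cluster 8, at 10.7 and 17.97 in cluster 9, and at 16.4 and 26.8 in cluster 4. The pore-forming claudins Cldn15 and Cldn2 stood at 0.00683 and 0.00976 in cluster 8, the second of these in 1 cell and both under the level of 3 UMIs, against 1.46 and 0.345 in cluster 9 and 0.0924 and 0.0253 in cluster 4. Cldn4 stood at 0.311 in cluster 8, against 0.711 for cluster 9 and 3.81 for cluster 4. Cldn3 and Cldn7 thus lay within 2-fold of cluster 9 and cluster 4, and Cldn15 and Cldn4 were lower in cluster 8 than in both. Cldn2 was lower than in cluster 9, and its few UMIs in clusters 8 and 4 do not set those apart. Cdh1, the adhesion protein of epithelial cell contacts, stood at 6.88 in cluster 8, against 2.97 for cluster 9 and 5.30 for cluster 4, and occludin (Ocln) at 1.33 in cluster 8, against 0.524 for cluster 9 and 0.639 for cluster 4.

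Further genes with high levels in cluster 8 lay outside these groups. Tgm3 stood at 35.8 in cluster 8 (34.6 to 37.1), against 1.71 for cluster 9, 6.12 for cluster 4 and 14.97 for cluster 3. Eno3, the muscle form of enolase, stood at 8.27 in cluster 8, against 0.277 for cluster 9, 2.74 for cluster 4 and 3.39 for cluster 3. Tnni1, a troponin of slow muscle, stood at 6.92 in cluster 8, against 0.465 for cluster 9, 1.84 for cluster 4 and 5.05 for cluster 3. Cluster 3 was the nearest to cluster 8 for these 3 genes. The transcript 2310079G19Rik stood at 1.92 in cluster 8, against 0.136 for cluster 9, 0.118 for cluster 4 and 0.276 for cluster 1, a ratio of 6.97 to that highest other cluster. Rdh16, a retinol dehydrogenase, stood at 1.84 in cluster 8, against 0.0561 for cluster 9 and 1.29 for cluster 4, and Rbp2, which carries retinol in the gut, at 3.09 in cluster 8, against 1.002 for cluster 9 and 1.36 for cluster 4. Sprr2a3, a cornified envelope protein with close copies, stood at 30.1 in cluster 8, against 4.90 for cluster 9 and 13.8 for cluster 4.

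Against cluster 9, the other Car4 cluster, 242 of 1745 genes (13.9%) were at least 2-fold higher in cluster 8 and 323 (18.5%) lower. The split depended on the scaling: it was 197 and 500 without mitochondrial, ribosomal protein and Malat1 transcripts, and 421 and 211 when genes were scaled by their median ratio. Genes of fuel use and fat handling were among the lower ones. Fabp2, an intestinal fatty acid binding protein, stood at 0.212 in cluster 8, against 26.7 for cluster 9, 0.559 for cluster 4 and 1.37 for cluster 3. Cluster 9 was higher by 126-fold for Fabp2 (80.2 to 211), and clusters 8 and 4 stood far below it. Acads, which starts the breakdown of butyrate, stood at 1.19 in cluster 8, against 5.46 for cluster 9 and 1.41 for cluster 4, and the next enzyme Echs1 at 0.822 in cluster 8, against 2.39 for cluster 9 and 0.598 for cluster 4.

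Of 19 genes of monocarboxylate and short chain fatty acid use, 1 was higher and 7 were lower in cluster 8 than in cluster 9. Over all genes 13.9% were higher and 18.5% lower. The median log2 ratio of the list was -0.82, where that of all genes was -0.05. The median stayed below 0 under both other scalings, at -1.02 and -0.48. Slc16a1, a carrier of lactate and butyrate, stood at 3.104 in cluster 8, against 1.59 for cluster 9 and 0.883 for cluster 4. Of 15 such genes, 1 (Slc16a1) was higher and 2 lower in cluster 8 than in cluster 4, beside 7.16% and 9.7% of all genes. Genes of oxidative phosphorylation summed to 445 in cluster 8, against 484 for cluster 9 and 276 for cluster 4. Their median log2 ratio to cluster 9 was -0.28 and changed sign, to 0.06, under scaling by the median ratio. The median of all genes moved from -0.05 to 0.28 under that scaling, so the list stayed below all genes in both cases. The median log2 ratio of the list to cluster 4 was 0.53. Against cluster 4, 3 of 36 were higher, near the 7.16% of all genes, and 0 lower, beside 9.7% of all genes.

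All 27 genes of a list of cytosolic ribosomal protein and elongation factor genes were 2-fold lower in cluster 8 than in cluster 9, beside 18.5% of all genes. Their median log2 ratio was -2.33. Under scaling by the median ratio 26 were lower, where 211 of all genes were, and the median of the list was -1.99. The list summed to 140 in cluster 8, the lowest of the 12 clusters, against 692 for cluster 9 and 237 for cluster 4. Rpl3 stood at 1.12 in cluster 8, against 17.5 for cluster 9 and 3.09 for cluster 4.

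Slc26a3, higher in cluster 8, and Fabp2, higher in cluster 9, have both been linked to the enterocyte factor HNF4, and their promoters are shown as a pair with opposite levels. The RefSeq windows are at chr12:31437969-31438268 for Slc26a3 and chr3:122894822-122895121 for Fabp2, both on the plus strand, and the RefSeq start of Slc26a3 lies inside the longer GENCODE gene model given above. Capitals mark matches, on either strand, to CAAAGNNCA, a core form of the HNF4 site.
Slc26a3: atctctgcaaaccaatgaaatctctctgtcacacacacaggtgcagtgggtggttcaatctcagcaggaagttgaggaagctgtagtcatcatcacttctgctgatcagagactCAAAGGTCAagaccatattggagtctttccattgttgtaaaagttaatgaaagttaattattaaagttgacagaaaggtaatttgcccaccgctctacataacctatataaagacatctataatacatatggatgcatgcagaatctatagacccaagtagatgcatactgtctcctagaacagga
Fabp2: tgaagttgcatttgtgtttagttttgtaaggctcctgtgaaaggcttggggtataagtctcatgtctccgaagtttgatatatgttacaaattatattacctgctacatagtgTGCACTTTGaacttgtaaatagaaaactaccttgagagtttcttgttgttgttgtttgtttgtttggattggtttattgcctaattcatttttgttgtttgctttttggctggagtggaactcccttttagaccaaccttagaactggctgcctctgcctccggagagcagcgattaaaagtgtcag
Each held 1 match, at base 115 in Slc26a3 and base 114 in Fabp2, and 6.36% of 32851 promoter windows held one. Hnf4a itself stood at 3.66 in cluster 8, against 2.32 for cluster 9 and 2.27 for cluster 4.

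**Figure D3:**
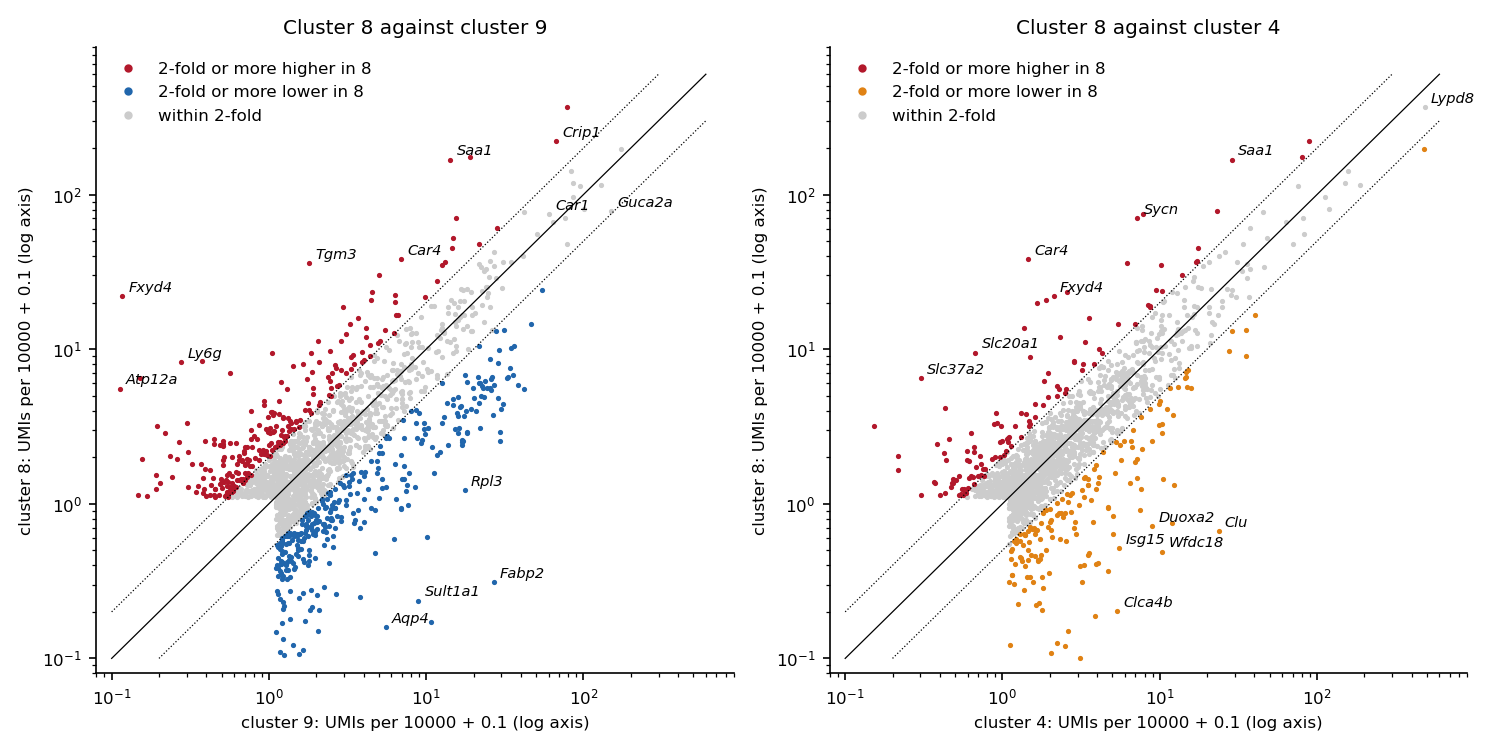
Levels in cluster 8 (vertical) against cluster 9 (left panel) and cluster 4 (right panel) of genes at 1 per 10000 or more in either cluster, with 0.1 added, on log axes; each point is a gene, coloured where it differs by 2-fold or more. Saa1, Car4 and Fxyd4 lie far above the diagonal in both panels, while Fabp2 and Aqp4 lie below it against cluster 9 and Clu and Duoxa2 against cluster 4.

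Against cluster 4, the cluster it most resembled, 118 of 1649 genes (7.16%) were at least 2-fold higher in cluster 8 and 160 (9.7%) lower. The lower ones included genes of epithelial repair. Clu, the clusterin of revival stem cells in injured mouse gut, stood at 0.564 in cluster 8, against 0.0885 for cluster 9 and 23.6 for cluster 4. Anxa1, an annexin of wound edges, stood at 1.78 in cluster 8, against 1.93 for cluster 9 and 6.91 for cluster 4, and S100a11 at 1.34 in cluster 8, against 5.17 for cluster 9 and 10.4 for cluster 4, with cluster 8 the lowest of the 12. Cluster 4 was 41.8-fold higher than cluster 8 for Clu (31.5 to 56.5). Of 13 genes of the regenerative list at a level of 1 or more, 0 were higher and 9 lower in cluster 8 than in cluster 4, with a median log2 ratio of -1.62, beside 7.16% and 9.7% of all genes. Of 7 such genes 2 were higher and 1 lower than in cluster 9, beside 13.9% and 18.5% of all genes. None of the 22 measured genes of that list was highest in cluster 8, beside 8.47% of all genes.

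Genes that interferon turns on were also lower in cluster 8 than in cluster 4. Isg15, a ubiquitin-like protein, stood at 0.415 in cluster 8, against 0.202 for cluster 9 and 5.43 for cluster 4, and Ifit1, which binds viral RNA, at 0.122 in cluster 8, against 0.0355 for cluster 9 and 1.54 for cluster 4. Irf7, a factor of the interferon response, stood at 1.85 in cluster 8, against 1.62 for cluster 9 and 7.09 for cluster 4. Of 10 such genes 0 were higher and 6 lower in cluster 8, with a median log2 ratio of -1.69, which was -1.77 and -1.64 under the other scalings. Over all genes 9.7% were lower. Against cluster 9, 2 of 4 were higher and 0 lower, beside 13.9% and 18.5% of all genes. Clca4b stood at 0.104 in cluster 8, against 0.0104 for cluster 9 and 5.25 for cluster 4. Wfdc18, a small secreted protein, stood at 0.390 in cluster 8, against 0.117 for cluster 9 and 10.3 for cluster 4, and Plet1, a surface protein, at 0.0867 in cluster 8, against 0.0488 for cluster 9 and 3.80 for cluster 4.

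Of 13 immediate early genes, which cells switch on within minutes of a stimulus, 0 were higher and 6 lower in cluster 8 than in cluster 4, beside 7.16% and 9.7% of all genes. Of 12 such genes 4 were higher and 0 lower than in cluster 9, beside 13.9% and 18.5% of all genes. Without the abundant transcripts 1 was higher, and under scaling by the median ratio 6 were. The count over all genes that were higher moved from 242 to 197 and to 421. Atf3, a stress-induced factor, stood at 1.37 in cluster 8, against 1.30 for cluster 9 and 7.06 for cluster 4. Cdkn1a, a p53 target that halts the cell cycle, stood at 6.52 in cluster 8, against 3.25 for cluster 9 and 6.11 for cluster 4, and the pore-forming gasdermin Gsdmd at 3.80 in cluster 8, against 0.940 for cluster 9 and 4.10 for cluster 4. Among glycolysis and hypoxia genes 0 of 20 were higher and 4 lower than in cluster 4, beside 7.16% and 9.7% of all genes. Against cluster 9, 3 of 14 were higher and 0 lower, near the 13.9% of all genes that were higher. Without the abundant transcripts 2 of 17 were higher and 1 lower, where 197 and 500 of all genes were. Under scaling by the median ratio 4 of 14 were higher and 0 lower, where 421 and 211 of all genes were. Hk2, the first enzyme of glycolysis, stood at 2.92 in cluster 8, against 0.668 for cluster 9 and 3.67 for cluster 4.

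**Figure D4:**
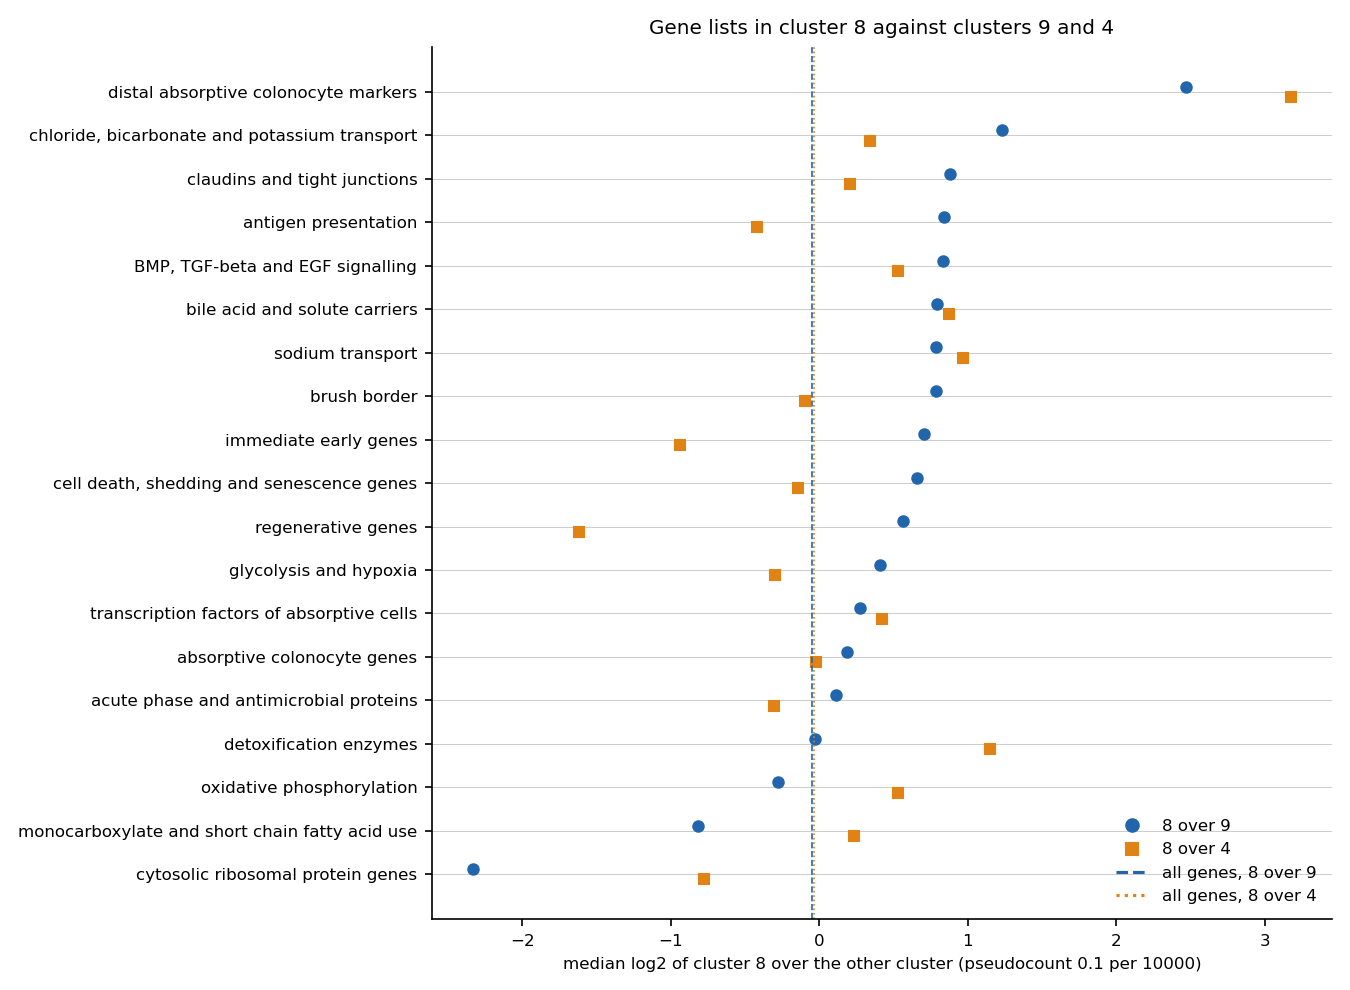
Median log2 ratio of cluster 8 over cluster 9 (circles) and over cluster 4 (squares) for 19 gene lists, over members at 1 per 10000 or more in either cluster, with 0.1 added to each level; dashed and dotted lines are the medians of all genes, -0.05 and -0.04. The regenerative list lies at -1.62 against cluster 4 and above 0 against cluster 9, and the ribosomal list lies below 0 against both.

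Of the regulators of absorptive cells 9 of 38 were highest in cluster 8, where 8.47% of all genes were. Against cluster 9, 1 of 15 was higher and 1 lower, beside 13.9% and 18.5% of all genes. Without the abundant transcripts 0 of 16 were higher and 4 lower, where 197 and 500 of all genes were. Under scaling by the median ratio 4 of 15 were higher and 1 lower, where 421 and 211 of all genes were. Against cluster 4, 2 of 14 were higher and 2 lower, beside 7.16% and 9.7% of all genes. Klf4, a factor of surface differentiation, stood at 10.8 in cluster 8, against 4.81 for cluster 9 and 6.94 for cluster 4. Vdr, the vitamin D receptor, stood at 3.08 in cluster 8, against 1.54 for cluster 9 and 1.11 for cluster 4, with a ratio of 2.00 to cluster 9 (1.64 to 2.43). Cdx2, a caudal factor of intestinal identity, stood at 0.681 in cluster 8, against 3.43 for cluster 9 and 0.396 for cluster 4, and its relative Cdx1 at 2.16 in cluster 8, against 3.98 for cluster 9 and 1.98 for cluster 4. Klf4 and Vdr were higher in cluster 8 than in both neighbours, and Cdx2 and Cdx1 lay closer to cluster 4 than to cluster 9. Id3, a repressor induced by BMP, stood at 2.54 in cluster 8, against 2.96 for cluster 9 and 0.354 for cluster 4. Bmp2, a ligand of that pathway, stood at 1.85 in cluster 8, against 0.160 for cluster 9 and 0.894 for cluster 4.

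Posterior Hox genes differed most between clusters 8 and 9 in the Hoxd group. Hoxd11 stood at 0.607 in cluster 8, against 0.00782 for cluster 9 and 1.06 for cluster 4, and Hoxd10 at 0.213 in cluster 8, against 0.00464 for cluster 9 and 0.852 for cluster 4. Hoxd13 stood at 0.290 in cluster 8, against 0.0200 for cluster 9, 0.322 for cluster 4 and 0.364 for cluster 3. Hoxa13 stood at 0.437 in cluster 8 (0.309 to 0.599), the highest of the 12 clusters, against 0.190 for cluster 9, 0.162 for cluster 4 and 0.185 for cluster 3. These genes of the far end of the Hox clusters were higher in cluster 8 than in cluster 9. More anterior members ran the other way: Hoxb9 stood at 0.104 in cluster 8, against 0.626 for cluster 9 and 0.129 for cluster 4, and Hoxa7 at 0.251 in cluster 8, against 0.830 for cluster 9 and 0.932 for cluster 4. Hoxb6, Hoxb7 and Hoxb8 were listed at 0 in cluster 8, and Hoxb7 stood at 0.134 in cluster 9, at least 3.90-fold lower in cluster 8. Of the 18 measured Hox genes and transcripts only Hoxb13 had a level above 1 in cluster 8, so a few cells can set these levels. The 18 summed to 11.2 in cluster 8, which ranked 3 of the 12 clusters. The sums were 5.09 for cluster 9, 9.51 for cluster 4, 11.4 for cluster 3 and 16.1 for cluster 11.

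**Figure D5:**
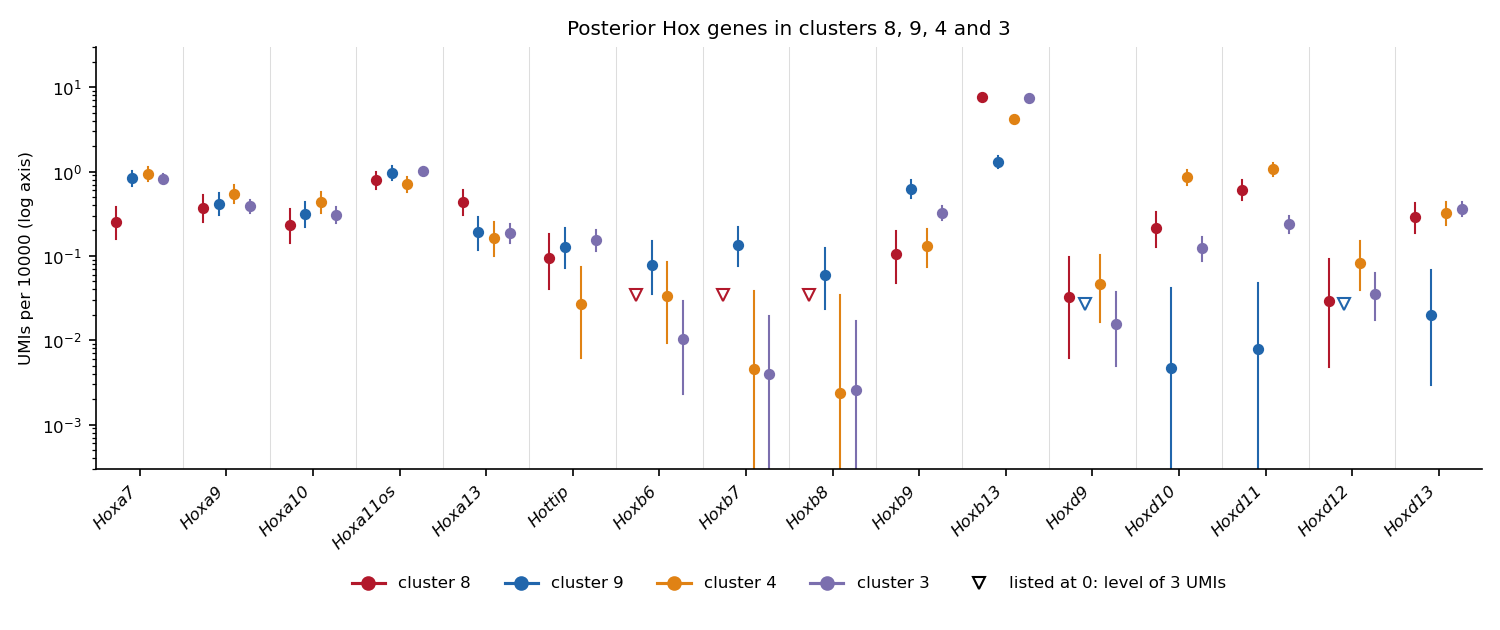
Levels of posterior Hox genes and transcripts in clusters 8, 9, 4 and 3, in UMIs per 10000 on a log axis; points are levels, lines 95% counting intervals, and open triangles mark genes listed at 0. Hoxb13, Hoxd10, Hoxd11 and Hoxd13 are higher in cluster 8 than in cluster 9, and Hoxa7 and Hoxb9 are lower.

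Markers of other cell types were low in cluster 8. The 16 goblet cell markers summed to 6.99 in cluster 8, the lowest of the 12 clusters, against 16.2 for cluster 9, 13.9 for cluster 4 and 1066 for cluster 0. The 20 proliferation markers summed to 0.953 in cluster 8, also the lowest, against 5.51 for cluster 9, 1.58 for cluster 4 and 48.7 for cluster 7. The 10 neutrophil markers summed to 2.01 in cluster 8, against 1.102 for cluster 9, 0.921 for cluster 4 and 1158 for cluster 5, led by S100a9 at 0.785 and S100a8 at 0.722, with Ngp listed at 0. All 8 T and NK cell markers measured were listed at 0 in cluster 8, and tuft cell markers summed to 0.0306. In droplet data free RNA and a few misplaced cells can give such levels, and their part was not tested.

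Xist, the RNA that coats an inactive X chromosome, was listed at 0 in cluster 8 and stood at 0.0223 in cluster 9, from 1 cell, at 0.0197 in cluster 3 and at 2.99 in cluster 4. By the level of 3 UMIs it was at least 87.0-fold lower in cluster 8 than in cluster 4. The Y-linked gene Eif2s3y stood at 0.490 in cluster 8, against 0.613 for cluster 9 and 0.413 for cluster 4. The cells of clusters 8 and 4 therefore differ in Xist, the labels do not give the sex of the mice or how the libraries share the clusters, and the part of this difference in the comparison of clusters 8 and 4 was not tested.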

How the data were processed

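Droplet single-cell RNA-seq of the colon epithelium gave 2 libraries of 1 group. The tools named in the submitters' processing notes are Cell Ranger 3.1.0 and Seurat 2.3, and the build is mm10. How cells were filtered, doublets handled and clusters set is not stated there. The authors deposited 1 table of 17044 genes by 12 clusters, whose values are a normalized signal: each is the mean over cells of UMIs per 10000, and each column sums to 10000. Each cell has the same weight in such a mean, whatever its depth.

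From these averages the number of cells and the UMI totals were recovered by arithmetic (tolerance 1e-12, totals of 500 or more; 2673 of 3082 totals, and 93.9% of those of cluster 8). These gave 95% Poisson intervals of levels and exact conditional intervals of ratios, which cover counting error only, and the level of 3 UMIs as the floor for genes listed at 0 (0.0344 in cluster 8, 0.0265 in cluster 9, 0.0242 in cluster 4). The recovery was tested on simulated data. A gene counted as higher or lower at 2-fold with 0.1 added to both levels, among genes at 1 per 10000 or more in either cluster. No test was run, since the table does not separate the libraries and cells are not replicates.

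The members and the 44 gene lists were chosen with earlier results of these data known. Named genes were the 7 markers, the 15 largest ratios over the highest other cluster, the 10 largest and 10 smallest ratios to cluster 9, to cluster 4 and to the mean of the others, the 10 highest levels and, from each list, its 4 highest members, those past 2-fold and those listed at 0; some of these are given as counts, and some genes are not reported here. Coordinates are from GENCODE vM21 (GRCm38) and promoters from RefSeq (GRCm38.p6). Computation used Python 3.11.15, numpy 2.4.6, pandas 2.3.3, scipy 1.17.1 and matplotlib 3.10.9. Other pseudocounts, level minimums, a 4-fold bound, scalings and sets of other clusters were tried.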

Additional observations from a re-analysis of the deposited data

How the results depend on the processing

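The direction of no named gene called at 2-fold was reversed under the alternatives run, but these could hardly have reversed one. A pseudocount added to both levels keeps the direction, and the scalings moved the median ratio of all genes by less than 2-fold. Of 69 list medians against clusters 9 and 4, 12 changed sign with the scaling; that of posterior Hox genes to cluster 9, from 1 gene, was 2.47, and -0.44 over 3 genes without mitochondrial, ribosomal protein and Malat1 transcripts. Counts are given below as genes of cluster 8 over the highest other cluster, then higher and lower than in cluster 9, in cluster 4 and in the mean of the others. The main counts were 39, then 242 and 323, 118 and 160, 345 and 427. With 1 per 10000 added they were 21, then 109 and 159, 58 and 75, 147 and 276. With a minimum level of 0.3 the last 6 were 511 and 709, 213 and 359, 588 and 965. With a minimum of 3 they were 23, then 103 and 141, 61 and 74, 139 and 195. At a 4-fold bound they were 9, then 56 and 110, 25 and 46, 74 and 227. Without mitochondrial, ribosomal protein and Malat1 transcripts 500 were lower than in cluster 9, and 294 and 591 were higher and lower than in the mean of the others. Scaling by the median ratio gave 421 higher and 211 lower than in cluster 9. The median log2 ratio of all genes to cluster 9 was -0.25 and 0.28 under these scalings. The cause of the shift between scalings was not tested. A pseudocount of 0.01, and leaving clusters 5, 6 and 10 out of the others, kept every count within 1.5 times. All 21 genes that led with 1 added, and 33 of the 34 without the abundant transcripts, were among the 39. The first of these was bound to hold, since a larger pseudocount only shrinks the ratio of a gene that leads.

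No paired analysis was possible because the table does not separate the 2 libraries, and for the same reason leaving out each library was not run. Levels under about 0.1 per 10000 in cluster 8 rest on fewer than 10 UMIs and are limited by depth. Read sharing within the Cyp2d, Saa, Ly6, metallothionein and Sprr2 families could not be examined from averages.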
